A study of Mus musculus with 6 samples.

Results

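The 40 genes described here encode the machinery that makes ribosomes, from RNA polymerase I to the factors that assemble both ribosomal subunits. They were chosen by name, without use of their measured values in the rule, but with earlier results of these data known. All 40 were found among the 23337 genes of the count table. The table gives Utp4 under its older symbol Cirh1a. All 40 also passed the filter on low counts, which kept 11283 genes, and the smallest count of a member in a library was 191 reads. RNA was sequenced from bone marrow granulocyte-monocyte progenitors of C57BL6 mice that carried ER-HOXA9, a fusion of an estrogen receptor part with the homeobox factor HOXA9. In such cells beta-estradiol keeps HOXA9 active and holds them as immature, dividing progenitors, and 0.5 µM beta-estradiol was in the medium of all groups, with stem cell factor. The 3 groups had 2 libraries each, which the submitters describe as biological replicates. They were untreated cells at day 0, cells given DMSO (vehicle) for 3 days, and cells given 200 nM GSK-LSD1, 5 µM mercaptopurine and 5 µM cerulenin together for 3 days. GSK-LSD1 inhibits the histone demethylase LSD1, mercaptopurine is a purine antimetabolite, and cerulenin inhibits fatty acid synthase. The drugs were given only in combination, so their separate parts cannot be told apart. The labels do not say whether the cells were a single clone, nor how old the mice were.

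RNA polymerase I transcribes the ribosomal RNA genes in the nucleolus, with the initiation factor Rrn3 and the DNA-binding factor Ubtf. The long precursor is trimmed by the small subunit processome, modified by box C/D and H/ACA ribonucleoproteins that are guided by small nucleolar RNAs, and packed with ribosomal proteins into the small (40S) and large (60S) subunits. Dividing progenitors spend much of their transcription on this pathway, and its genes are among the best known targets of the transcription factor MYC. The members were grouped by role into 6 RNA polymerase I genes, 13 small subunit genes, 7 ribonucleoprotein genes, 9 large subunit genes and 5 general nucleolar proteins.

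Total counts ranged from 11305666 to 16948697 reads per library. Levels are given as CPM, read counts scaled to the same fixed total in every library after normalisation (trimmed mean of M values, TMM), and CPM per kb of the deposited gene length is used wherever genes are compared with each other. Markers of the labelled cell type were present in every library: the 10 progenitor markers summed to 7876 to 8175 CPM at day 0, 8776 to 9002 CPM in vehicle cells and 10809 to 11357 CPM in drug-treated cells. Most of the difference was Mpo (means 4647 CPM with vehicle and 6735 CPM with the drugs). Against vehicle the drugs raised 4 of the 10 markers and lowered 3, namely Ctsg (log2 change -0.37), Cebpa (-0.37) and Hoxa9 (-0.55). Some markers of later myeloid cells moved with the drugs. Of the tested neutrophil markers Mmp8 (log2 change 8.46 against vehicle) and Mmp9 (5.30) rose, while S100a8 (-0.57) and Cxcr2 (-0.22) were not called. Ltf, Ngp and S100a9 were too low to be tested. The summed level of the neutrophil markers, 4 of 9 of them tested, was 5.38 to 7.06 CPM at day 0, 12.0 to 15.7 CPM in vehicle cells and 3492 to 3808 CPM in drug-treated cells, nearly all of it from Mmp8, while Camp and Retnlg were listed at 0. Monocyte markers summed to 841 to 877, 540.0 to 581 and 1160 to 1248 CPM in the same order, with 8 of the 9 tested markers higher with the drugs than with vehicle and Cx3cr1 lower (log2 change -1.45). Ccr2 made up most of each sum (means 814, 523 and 798 CPM). The 5 mast cell and basophil markers, 2 of them tested, summed to 902 to 1088, 478 to 495 and 1125 to 1212 CPM, with Fcer1a and Tpsb2 at 0. Nearly all of that sum was Cpa3, which was higher with the drugs than with vehicle (means 1147 and 460.5 CPM), while the other tested marker, Mcpt8, was lower (log2 change -0.30, adjusted p = 0.0469). The part of a change in maturity in the results below was not tested, and in bulk RNA fewer cells of a type and less RNA per cell cannot be told apart.

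Counts of Rn45s, the entry of the ribosomal RNA precursor, were first left out of the total. Together the 40 genes then took 1.11% and 1.15% of the counts at day 0, 1.04% and 1.05% in vehicle cells and 0.840% and 0.878% in drug-treated cells. Both drug libraries lay below both vehicle libraries, which lay below both day 0 libraries. Group means were 1.13% ± 0.0271 at day 0, 1.04% ± 0.00414 for vehicle and 0.859% ± 0.0267 for the drugs (SD, n = 2 each). With Rn45s in the total the means were 0.876% ± 0.0126, 0.882% ± 0.0146 and 0.723% ± 0.0211, so day 0 and vehicle then differed by less than their spread and the drug libraries were again the lowest. Without Rn45s, Ncl and Npm1, the remaining 38 genes took 0.672%, 0.630% and 0.507% on average. Ncl and Npm1 are the most abundant members: per length, Npm1 stood at 783 CPM per kb and Ncl at 245 CPM per kb in vehicle cells, followed by Mybbp1a at 131 and Nop56 at 128 CPM per kb. The lowest members were Polr1e at 5.59, Bysl at 10.8 and Nle1 at 12.0 CPM per kb.

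**Figure D1:**
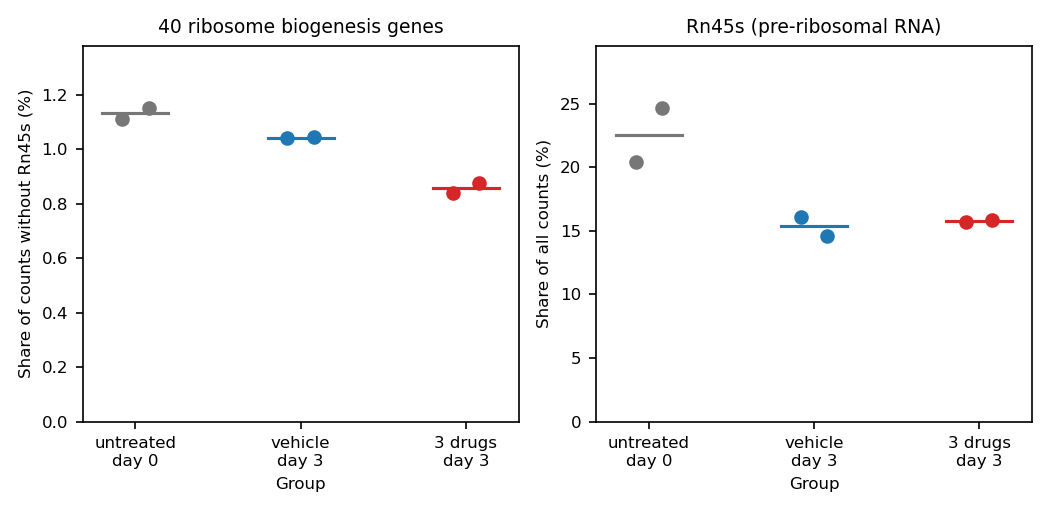
Share of all counts without Rn45s taken by the 40 ribosome biogenesis genes (left) and share of total counts taken by Rn45s (right), in percent, for each library as a point and each group as a mean line. The 40 genes took 0.840% and 0.878% in the drug libraries, the lowest shares, while Rn45s was highest at day 0 and similar in vehicle and drug libraries.

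**Figure D2:**
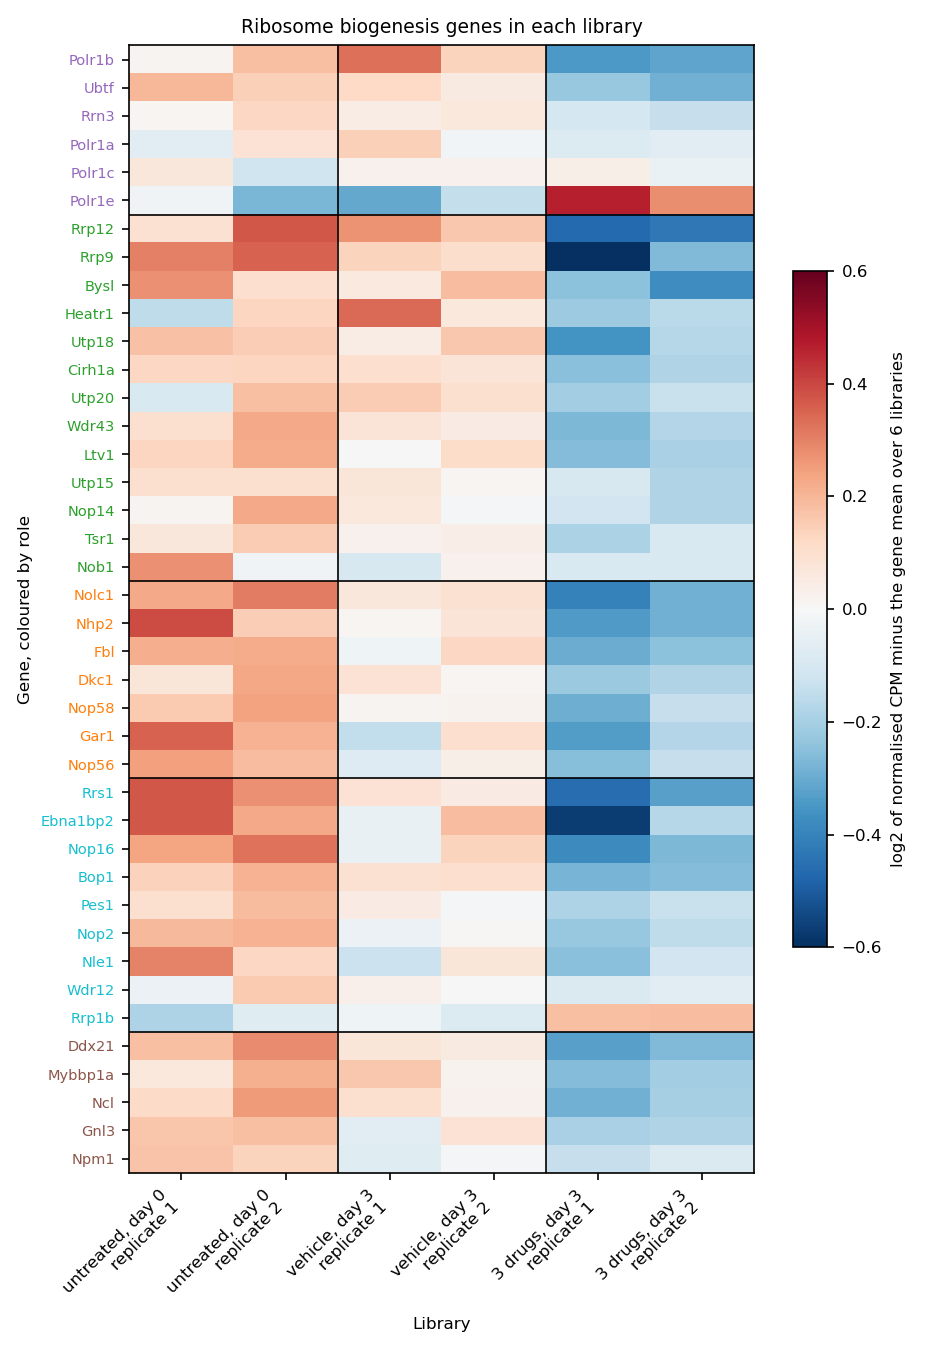
Deviation of each of the 40 genes (rows, ordered by role) in each of the 6 libraries (columns) from its own mean, as log2 CPM. The median deviation of the members was 0.13 and 0.18 at day 0, 0.05 and 0.05 for vehicle, and -0.25 and -0.18 for the drugs.

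The first question was how the drug combination changed the pathway against vehicle at day 3. Of the 40 members 24 fell and 2 rose at an adjusted p under 0.05 (the quasi-likelihood test of edgeR, adjusted after Benjamini and Hochberg across all 11283 genes), and 14 were not called. Among all tested genes 13.8% were lower and 18.1% higher by the same rule, or 31.9% in either direction. The members' median log2 change was -0.28, against 0.00 for all tested genes, and the range was -0.67 to 0.60. Their changes were thus modest in size: the deepest fall, of Rrp12, was 37.0%. Both drug libraries lay below both vehicle libraries for 35 members and above them for 2, where 33.7% and 35.1% of all genes showed such a separation. With the groups fitted without 1 drug library the lower calls dropped to 8 of 40 (drug replicate 1 left out, 5.08% of all genes lower) or 13 of 40 (drug replicate 2 left out, 6.19%), with median changes of -0.24 and -0.32, so the medians were close to the main one while the calls were fewer.

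**Figure D3:**
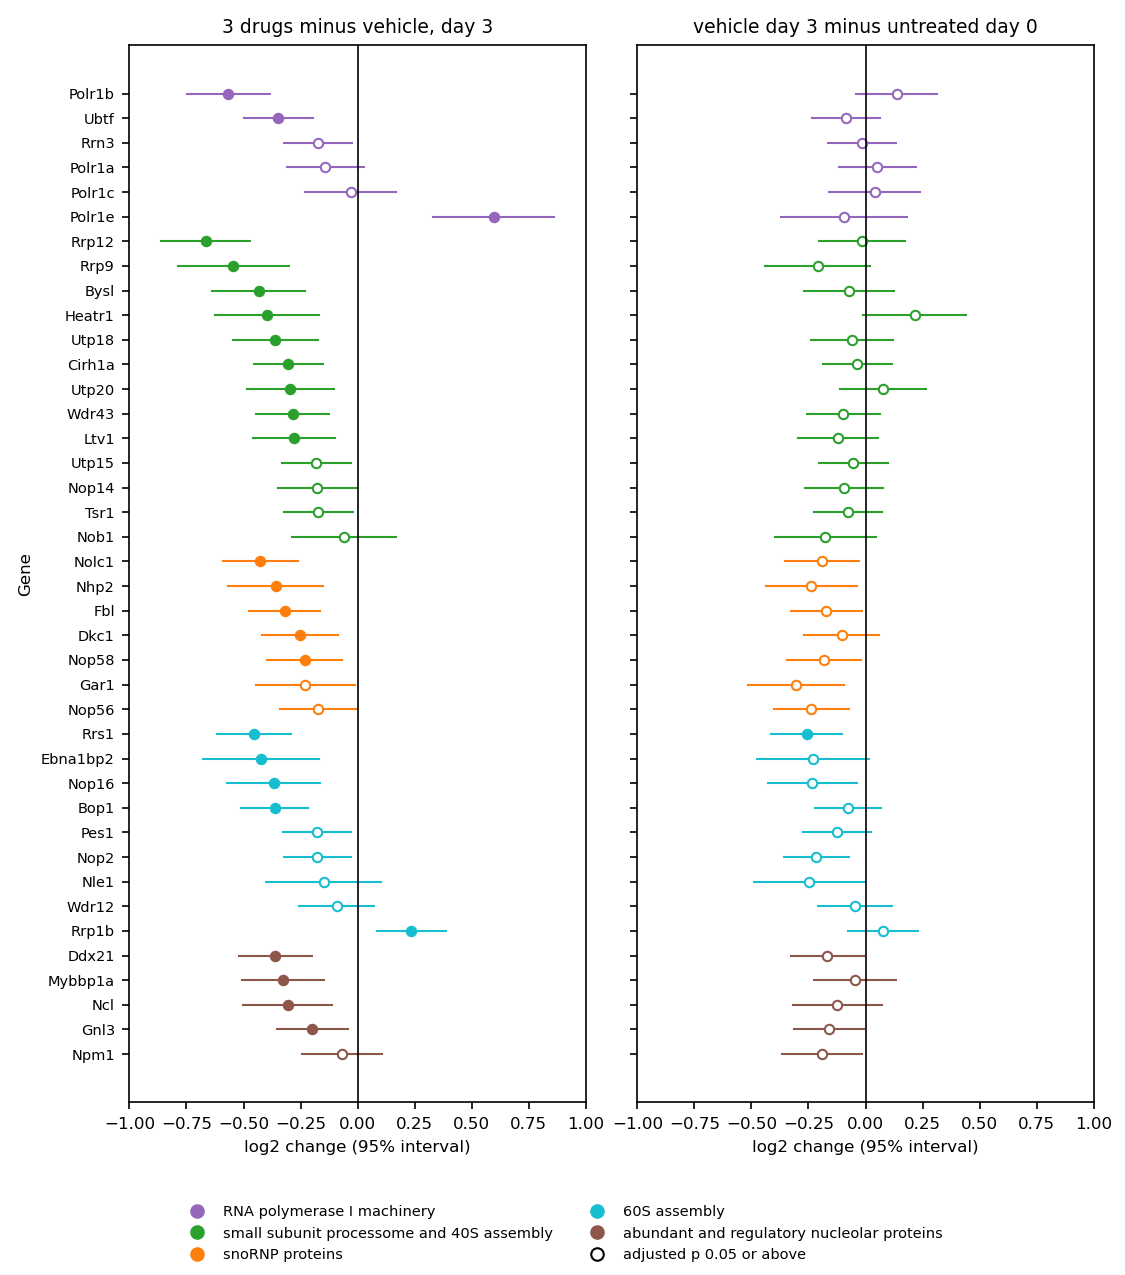
Log2 change of each of the 40 genes with drugs against vehicle, and with vehicle against day 0, as points with 95% confidence intervals from the edgeR fit, ordered and coloured by role, with open points where the adjusted p was 0.05 or above. Most intervals of the drug comparison lie below 0, with Polr1e and Rrp1b above it. In the vehicle comparison 34 of 40 changes are negative, with a median of -0.10, and the intervals of 13 members lie below 0.

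Among the 6 RNA polymerase I genes 2 fell, 1 rose and 3 were not called. Polr1b (chr2:129100996-129126595), the second-largest catalytic subunit of the enzyme, stood at 96.9 and 109 CPM at day 0, 120.3 and 105 in vehicle cells, and 75.5 and 76.8 in drug-treated cells. The drug libraries were the lowest, well apart from vehicle, and its log2 change of -0.57 ± 0.0833 (SE) was a fall of 32.5% (adjusted p = 0.000208). Ubtf (chr11:102304560-102319096), which binds and bends the ribosomal RNA genes, had 207 and 199 CPM at day 0, 196 and 187 in vehicle cells, and 154 and 147 in drug-treated cells. It fell by 21.4% (log2 change -0.35 ± 0.0693 (SE), adjusted p = 0.00215), again with no overlap between drug and vehicle libraries. Leaving out drug replicate 2 gave Ubtf an adjusted p of 0.0536 with a log2 change of -0.32. Polr1e (chr4:45018625-45033692), an enzyme subunit that helps recruit the polymerase to its promoter, went the other way. Its levels were 18.9 and 15.9 CPM at day 0, 15.5 and 17.4 in vehicle cells, and 26.5 and 23.3 in drug-treated cells, so both drug libraries were the highest of the 6. The rise was 51.1% (log2 change 0.60 ± 0.123 (SE), adjusted p = 0.00266), the largest among the members, in the member with the lowest level per length. The largest subunit Polr1a was not called at 176 and 158 CPM in vehicle cells and 151 and 152 CPM in drug-treated cells, with a 95% interval of -0.31 to 0.03 for its log2 change. Polr1c, a subunit shared with RNA polymerase III, had an interval of -0.23 to 0.17 around a log2 change of -0.03, and Rrn3 had one of -0.32 to -0.02 (adjusted p = 0.0750). Within this enzyme Polr1b and Polr1e were thus called in opposite directions.

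Of the 13 small subunit genes 9 fell and none rose, with a median log2 change of -0.29. Rrp12 (chr19:41862851-41896153), a repeat protein needed for export of the precursor small subunit from the nucleus, had 112 and 136 CPM at day 0, 127 and 118 in vehicle cells, and 75.9 and 78.0 in drug-treated cells. Day 0 and vehicle libraries overlapped and both drug libraries lay far below them, and the log2 change of -0.67 ± 0.0898 (SE) had an adjusted p of 0.000103. Rrp9 (chr9:106477309-106485415), a protein of the U3 ribonucleoprotein that guides the early cuts of the precursor, was at 38.1 and 39.4 CPM at day 0, 33.8 and 33.1 in vehicle cells, and 19.9 and 25.6 in drug-treated cells. The drug replicates of Rrp9 differed from each other more than the vehicle replicates did, but neither reached the vehicle level, and it fell by 31.4% (log2 change -0.54 ± 0.112 (SE), adjusted p = 0.00256). Bysl (chr17:47599331-47611492), a late small subunit assembly factor, had 46.4 and 41.1 CPM at day 0, 39.9 and 43.6 in vehicle cells, and 32.3 and 29.6 in drug-treated cells. It fell by 26.0% (log2 change -0.43 ± 0.0945 (SE), adjusted p = 0.00379). Exons of Bysl overlap those of Ccnd3 over 9.29% of its length, and whether reads were assigned by strand is not given, so a part of its count may belong to that gene. Heatr1, a large processome component, fell as well (log2 change -0.40, adjusted p = 0.0120). Its vehicle libraries were 334 and 275 CPM, and without vehicle replicate 1 the log2 change was -0.25 (adjusted p = 0.125). It was also not called without drug replicate 1 or drug replicate 2 (adjusted p = 0.107 and 0.0577). Other genes that fell were the processome genes Utp18 (-0.36), Cirh1a (-0.30), Utp20 (-0.29), Wdr43 (-0.29) and the cytoplasmic maturation factor Ltv1 (-0.28). The members not called were Nop14, Utp15, Tsr1 (34.2% of its length overlaps exons of Srr) and Nob1, the nuclease of the last small subunit cut. Nob1 had the smallest difference of the group, with an interval of -0.29 to 0.17.

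Promoter sequence was read for the members because the letters CACGTG, the E-box core to which MYC binds with its partner MAX, are known from promoters of this pathway. Windows from 250 bases before to 50 after the annotated RefSeq start (GRCm38.p6) were available for 35 of the 40 members, and a gene with several starts was counted once if any of its windows matched. CACGTG, which reads the same on both strands, was found for 11 of the 35 members (31.4%). The shares were 12.0% of 8996 tested genes and 8.09% of all 27025 genes with a window. Within the 50 bases after the start it stood in 8 of 35 (22.9%), against 2.03% and 1.28%, and in the 250 bases before the start in 3 of 35 (8.57%), against 10.03% and 6.86%. The 6 members that held it and fell with the drugs are shown in 5′ to 3′ direction on the gene's strand, with up to 10 bases on each side and the motif in capitals, to let their positions be compared. Counted from 1 at the start, the motif begins at base -20 in Utp18 (chr11:93885771-93885796, minus strand), 16 in Cirh1a (chr8:106893645-106893670, plus), 18 in Wdr43 (chr17:71616222-71616247, plus), 29 in Ltv1 (chr10:13193094-13193119, minus), 38 in Utp20 (chr10:88826765-88826787, minus) and 41 in Mybbp1a (chr11:72441357-72441376, plus), where coordinates are those of the printed bases.
Utp18: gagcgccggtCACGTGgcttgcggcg
Cirh1a: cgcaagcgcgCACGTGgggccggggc
Wdr43: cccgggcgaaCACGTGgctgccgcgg
Ltv1: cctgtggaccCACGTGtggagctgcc
Utp20: gcactaactaCACGTGaggaaaa
Mybbp1a: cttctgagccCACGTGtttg
In 5 of the 6 the motif lies just after the start, and for Mybbp1a the RefSeq start is 51 bases before the 5′ end of the deposited gene model. The motif also occurred in windows of Pes1, Nle1, Tsr1, Nop2 and Rrn3, which were not called. Members with and without it fell in similar numbers: 6 of 11 with the motif (median log2 change -0.28) and 14 of 24 without it (median -0.24). Both rising members were also without it. Of the 5 members with no window (Rrs1, Fbl, Npm1, Rrp12 and Bop1) 4 fell, with a median of -0.36. Among all tested genes 13.8% were lower, and their calls were not split by motif. Another motif, CGCGAGA, is known from promoters of widely expressed genes and was searched on both strands. It was found for 6 of 35 members (17.1%), 6.35% of the tested genes and 2.92% of all genes with a window. These matches describe letters in a window and not binding.

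Of the 7 ribonucleoprotein genes 5 fell and none rose, with a median log2 change of -0.25. Nolc1 (chr19:46075863-46085531), a chaperone of these particles between nucleolus and Cajal bodies, had 399 and 422 CPM at day 0, 357 and 362 in vehicle cells, and 257 and 278 in drug-treated cells. Each group lay below the one before it with no overlap, and the fall with the drugs was 25.6% (log2 change -0.43 ± 0.0752 (SE), adjusted p = 0.000895). Fbl (chr7:28169748-28179269), the methyltransferase of box C/D particles, stood at 154 and 154 CPM at day 0, 129 and 144 in vehicle cells, and 107 and 111 in drug-treated cells. It fell by 19.9% (log2 change -0.32 ± 0.0725 (SE), adjusted p = 0.00480). For Nhp2 (chr11:51619773-51623714), a core H/ACA protein, the levels were 52.6 and 44.4 CPM at day 0, 40.4 and 42.3 in vehicle cells, and 31.6 and 32.8 in drug-treated cells. Its fall was 22.0% (log2 change -0.36 ± 0.0961 (SE), adjusted p = 0.0127), and exons of Rmnd5b overlap 4.18% of its length. Dkc1, the pseudouridine synthase of H/ACA particles, and Nop58, a scaffold of box C/D particles, had smaller log2 changes of -0.25 and -0.23 (adjusted p = 0.0242 and 0.0332). Another H/ACA core protein, Gar1, and the other C/D scaffold Nop56 were not called, with intervals of -0.45 to -0.01 and -0.34 to -0.01.

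In the group of 9 large subunit genes 4 fell, 1 rose and 4 were not called (median log2 change -0.18). Rrs1 (chr1:9545408-9547455), which helps to place the 5S ribosomal RNA in the precursor large subunit, had 105 and 98.3 CPM at day 0, 86.4 and 84.1 in vehicle cells, and 59.4 and 65.0 in drug-treated cells. The 3 groups did not overlap, and the step from vehicle to drugs was a fall of 27.0% (log2 change -0.45 ± 0.0745 (SE), adjusted p = 0.000515). Bop1 (chr15:76452996-76477269) is a scaffold of the complex it forms with Pes1 and Wdr12, and its levels were 90.6 and 95.1 CPM at day 0, 87.8 and 88.2 in vehicle cells, and 67.9 and 68.9 in drug-treated cells. It fell by 22.3% (log2 change -0.36 ± 0.0674 (SE), adjusted p = 0.00128). Its partners were not called, with log2 changes of -0.18 for Pes1 (95% interval -0.33 to -0.03) and -0.09 for Wdr12 (-0.26 to 0.07), and the difference between the partners was not tested. Nop16 (chr13:54584191-54590074), a nucleolar assembly factor, stood at 41.9 and 44.6 CPM at day 0, 34.5 and 39.0 in vehicle cells, and 27.3 and 29.6 in drug-treated cells. Its log2 change was -0.37 ± 0.0942 (SE) (adjusted p = 0.00991). The fourth gene that fell was Ebna1bp2 (log2 change -0.42 ± 0.117 (SE), adjusted p = 0.0152), whose exons share 20.4% of their length with D4Ertd617e. Its log2 change was -0.25 without drug replicate 1 and -0.32 without vehicle replicate 2, and it was called in neither fit (adjusted p = 0.197 and 0.0941). Rrp1b (chr17:32036162-32062862), a nucleolar relative of a yeast large subunit factor, was higher with the drugs, at 69.9 and 75.4 CPM at day 0, 78.0 and 75.0 in vehicle cells, and 89.9 and 90.4 in drug-treated cells. Both drug libraries were above all others, by a small margin: the log2 change was 0.24 ± 0.0698 (SE) with an adjusted p of 0.0210. That call was lost in 4 of 13 alternative fits, among them DESeq2 and the fits without vehicle replicate 2, drug replicate 1 or drug replicate 2, with adjusted p up to 0.143.

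Among the 5 general nucleolar proteins 4 fell, and the median log2 change was -0.31. Ddx21 (chr10:62580247-62602298), an RNA helicase, had 485 and 522 CPM at day 0, 452 and 445 in vehicle cells, and 342 and 357 in drug-treated cells. It fell by 22.1% (log2 change -0.36 ± 0.0748 (SE), adjusted p = 0.00278). Mybbp1a (chr11:72441378-72451550), a nucleolar protein that binds the transcription factor MYB, was at 528 and 587 CPM at day 0, 566 and 514 in vehicle cells, and 423 and 438 in drug-treated cells. Its fall was 20.3% (log2 change -0.33 ± 0.0831 (SE), adjusted p = 0.00964). Ncl (chr1:86344719-86359455) encodes nucleolin, which binds the precursor RNA, and it had 2099 and 2314 CPM at day 0, 2077 and 1974 in vehicle cells, and 1587 and 1689 in drug-treated cells. With a log2 change of -0.31 ± 0.0899 (SE) (adjusted p = 0.0203) its drug libraries lay below all others, but 4 of 13 alternative fits, the replicate block among them, did not call it (adjusted p up to 0.245). Gnl3 (nucleostemin) was near the threshold at -0.20 (adjusted p = 0.0497). Npm1 (nucleophosmin), the most abundant member, was not called: it had 1556 and 1516 CPM at day 0, 1314 and 1375 in vehicle cells, and 1258 and 1304 in drug-treated cells, with an interval of -0.25 to 0.11 for its log2 change. Many processed copies of Npm1 lie in the mouse genome, and the counting of reads with several matches is not described, which makes its level uncertain.

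Calls of 7 members held in all 13 alternative fits: Rrp12, Rrp9, Rrs1, Nolc1, Polr1b and Bop1 as lower and Polr1e as higher. All 26 called members kept their sign in each of these fits. The other 19 calls were lost in 1 to 5 fits each. Without drug replicate 1 all of these were lost except those of Ubtf and Bysl. Without drug replicate 2 the lost calls were those of Ubtf, Bysl, Nhp2, Mybbp1a, Ncl, Nop58, Utp20, Dkc1, Gnl3, Ltv1, Heatr1 and Rrp1b. Leaving out vehicle replicate 1 ended the calls of Mybbp1a, Ncl, Nop58, Utp20, Wdr43, Dkc1 and Heatr1. Leaving out vehicle replicate 2 ended those of Nop16, Nop58, Ebna1bp2, Gnl3, Ltv1 and Rrp1b.

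The second question was what 3 days of culture with vehicle did without drugs. Of the 40 members 1, Rrs1, was lower and 0 were higher, where 3.99% of all tested genes were lower and 3.75% higher (7.74% in either direction), so the members' calls were no more frequent than the background. Rrs1 had a log2 change of -0.26 ± 0.0723 (SE) (adjusted p = 0.0472), and the call was lost in 11 of 13 alternative fits. The members' median log2 change was -0.10, against -0.02 over all genes. For 24 members both vehicle libraries lay below both day 0 libraries and for none above, compared with 26.9% and 23.9% of all genes. Day 0 and vehicle differ in both time and solvent, which cannot be told apart. Among single members Gar1 had the lowest log2 change, -0.31 ± 0.0970 (SE) (adjusted p = 0.0748), and Heatr1 the highest, 0.21 (adjusted p = 0.221), neither of them called.

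The changes with vehicle followed gene length. Over the 40 members Spearman's rho between deposited length and log2 change was 0.636 (Pearson's r with log2 length 0.637), and over all 11283 tested genes it was 0.367; these are correlations across genes of the same 4 libraries, and genes are not independent replicates. Members under 2 kb had a median of -0.19 (13 genes), those of 2 to 4 kb -0.09 (17 genes) and those over 4 kb -0.03 (10 genes), while the medians of all tested genes in these classes were -0.14, -0.01 and 0.08. The classes also differed between libraries of the same group: in untreated replicate 1 genes under 2 kb deviated by a median of 0.17 and those over 4 kb by -0.12, and in untreated replicate 2 by 0.01 and -0.01. With drugs against vehicle rho was -0.148 for the members and 0.046 for all genes, and the members' medians by class were -0.23, -0.29 and -0.32, against -0.02, 0.00 and 0.01 for all genes. Calls of a fall with the drugs were spread over short (7 of 13), middle (10 of 17) and long (7 of 10) members. Among all tested genes 421 of 3439, 672 of 4561 and 467 of 3283 were lower in these classes. The small step between day 0 and vehicle, in contrast, moved with length. The part of length-dependent differences between libraries in that step was not tested.

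**Figure D4:**
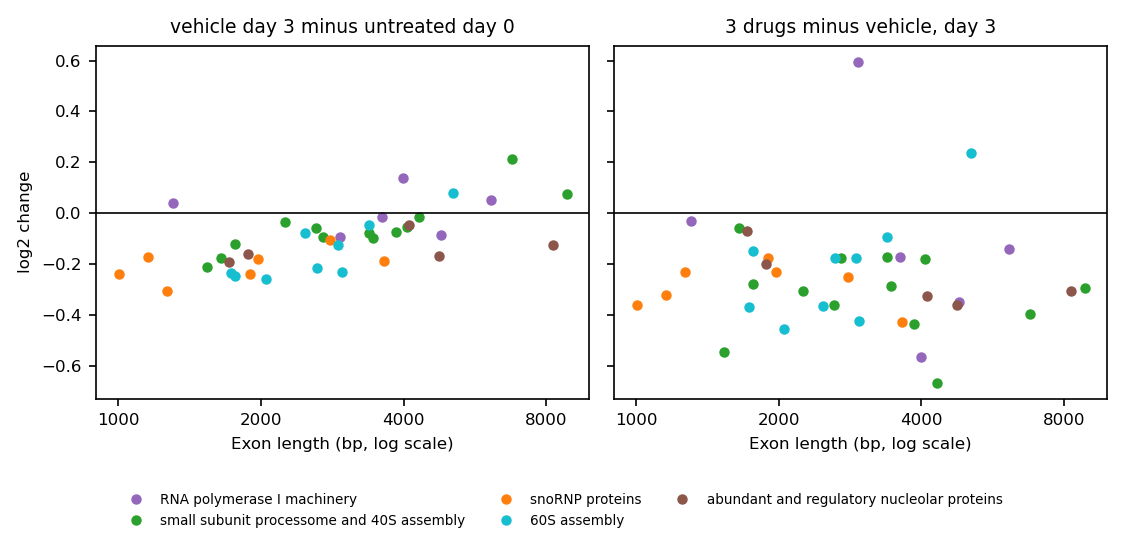
Log2 change of the 40 genes (points, coloured by role) against deposited exon length in base pairs on a log axis, for vehicle against day 0 and for drugs against vehicle. Member changes climb with length in the vehicle comparison (Spearman's rho 0.636) and not in the drug comparison (-0.148).

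Measured against day 0, which shares its drug libraries with the comparison above, 32 members were lower and 2 higher with the drugs, beside 21.2% and 22.7% of all tested genes (43.9% in either direction). The median log2 change was -0.39, with -0.01 for all genes, and 37 members had both drug libraries below both day 0 libraries (36.1% of all genes). By role 10 of 13 small subunit genes, all 7 ribonucleoprotein genes, 7 of 9 large subunit genes, all 5 general nucleolar proteins and 3 of 6 RNA polymerase I genes were lower. The deepest were Rrp9 at -0.75 ± 0.109 (SE) (adjusted p = 0.000136), Rrs1 at -0.71 ± 0.0733 (SE) (adjusted p = 7.49e-06) and Rrp12 at -0.68 ± 0.0893 (SE) (adjusted p = 6.12e-05). From day 0 to vehicle the log2 changes of these 3 genes were -0.21 for Rrp9 (95% interval -0.44 to 0.02), -0.26 for Rrs1 (-0.41 to -0.10) and -0.02 for Rrp12 (-0.21 to 0.17), and differences between the genes were not tested. Against day 0 Npm1 was also lower, by 16.6% (adjusted p = 0.0194), and Rrn3 just passed at -0.19 (adjusted p = 0.0421). Heatr1 did not pass (log2 change -0.18, adjusted p = 0.179). The higher genes were again Polr1e at 0.50 ± 0.120 (SE) (adjusted p = 0.00452) and Rrp1b at 0.31 ± 0.0695 (SE) (adjusted p = 0.00296). Length moved with this comparison too: over all tested genes the medians were -0.15 under 2 kb, -0.0013 from 2 to 4 kb and 0.11 over 4 kb, with 967 of 3439 short and 449 of 3283 long genes lower. The members' medians in these classes were -0.41, -0.38 and -0.30, and 11 of 13, 15 of 17 and 6 of 10 were lower. The part of length in these counts was not tested.

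Counts of Rn45s and of Myc, the known activator of the pathway, were read beside the members. Rn45s is the entry of the ribosomal RNA precursor. It took 20.4% and 24.6% of all counts at day 0, 16.1% and 14.6% in vehicle cells and 15.7% and 15.9% in drug-treated cells. Vehicle and drug libraries overlapped, and the log2 change between them was 0.07 ± 0.197 (SE) (adjusted p = 0.826), with a 95% interval of -0.36 to 0.49. From day 0 to the drugs it was -0.61 ± 0.197 (SE) (adjusted p = 0.0234), and from day 0 to vehicle -0.68 ± 0.198 (SE) (adjusted p = 0.0540). The libraries were enriched for polyadenylated RNA, which this precursor mostly lacks. Reads of the precursor and of the mature ribosomal RNAs trimmed from it were not told apart. The count of Rn45s is thus not a measure of the precursor's level or synthesis. Myc had 264 and 295 CPM at day 0, 339 and 314 in vehicle cells, and 307 and 303 in drug-treated cells. Its drug libraries lay just below the vehicle libraries, and the difference was not called (log2 change -0.10 ± 0.0790 (SE), adjusted p = 0.361, 95% interval -0.27 to 0.07).

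Another 157 genes of the pathway, in 7 lists also chosen with earlier results of these data known, were read for a wider picture. With drugs against vehicle 64 of them (40.8%) were lower and 4 (2.55%) higher, with a median log2 change of -0.19. Among all tested genes 13.8% were lower and 18.1% higher in this comparison. Falls were found in 24 of 42 other small subunit genes and 26 of 54 other large subunit genes, with medians of -0.22 and -0.22. They were also found in 6 of 12 genes listed for ribonucleoprotein assembly (median -0.25). In the list of the RNA exosome and other ribosomal RNA trimming genes 4 of 15 fell (median -0.16). The processome genes Nol10 (log2 change -0.54) and Dhx37 (-0.52) and the large subunit genes Urb1 (-0.47) and Lyar (-0.47) all fell. So did Tcof1 (-0.40) and Naf1 (-0.35), listed for ribonucleoprotein assembly, and the exosome genes Dis3 (-0.33) and Exosc3 (-0.37). Of 9 other RNA polymerase I genes Cd3eap was lower (-0.43 ± 0.105 (SE), adjusted p = 0.00733) and Taf1d higher (0.26 ± 0.0831 (SE), adjusted p = 0.0315), with a median of 0.06. Of 20 RNA polymerase III genes Polr3g, an alternative subunit typical of undifferentiated cells, was lower (-0.73 ± 0.104 (SE), adjusted p = 0.000169) and Gtf3c5 higher (0.69 ± 0.104 (SE), adjusted p = 0.00027). The median of this list was -0.13. Lower calls made up 11.1% of the other RNA polymerase I genes and 5% of the RNA polymerase III genes, as did higher calls. Neither list thus held a larger share of lower calls than the 13.8% of all tested genes, but both lists are small. Log2 changes were negative for 4 of the 9 and 14 of the 20 genes, against 49.9% of all tested genes. For 2 of the 9 and 11 of the 20 both drug libraries lay below both vehicle libraries, and for 3 and 6 above them. Among all tested genes 33.7% and 35.1% showed such a separation. Of 5 subunits shared among polymerases Polr2e (-0.52) and Polr2h (-0.48) were lower, all 5 had negative log2 changes, and the median of -0.33 was the lowest of the 7 lists. Besides Taf1d and Gtf3c5 the higher genes were Zfp622 (0.57 ± 0.0828 (SE), adjusted p = 0.000195), a late large subunit factor, and Gltscr2 (0.23, adjusted p = 0.0250), whose call was lost with DESeq2. With vehicle against day 0 6 of the 157 genes (3.82%) were lower and none higher, close to the 3.99% of all tested genes that were lower. With drugs against day 0, 103 (65.6%) were lower and 4 higher, where 21.2% and 22.7% of all tested genes were.

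**Figure D5:**
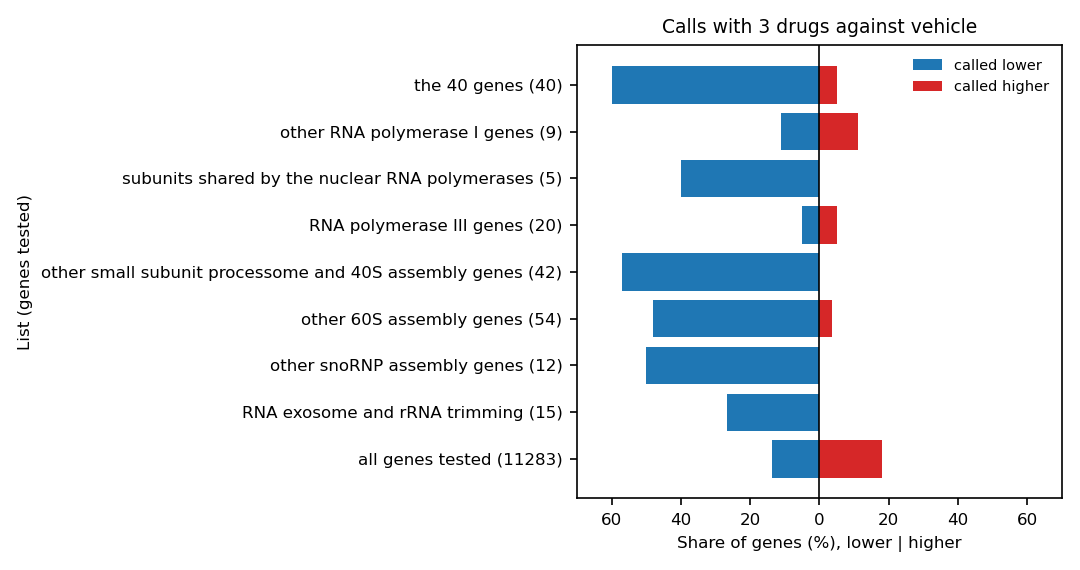
Share of genes called lower (to the left) and higher (to the right) with drugs against vehicle, in percent, for the 40 members, the 7 other pathway lists and all tested genes, with the number of genes tested in brackets. Lower calls made up 60% of the members, against 13.8% of all tested genes.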

How the data were processed

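Polyadenylated RNA of 6 libraries was measured. The deposited table holds raw read counts per gene, which the authors made from reads aligned with STAR 2.7.0f to mm10, per the submitters' processing notes, which also name deepTools 3.0.2. Its Length column, another unit, in base pairs as deposited by the authors, was used for CPM per kb and length classes. Strand, reads with several matches and annotation release: not given in the sources used here.

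Genes were filtered with filterByExpr and scaled by TMM, and 1 model with all 3 groups was fitted in edgeR 4.0.16 (R 4.3.3, limma 3.58.1; 3 residual degrees of freedom, common biological coefficient of variation 0.0592), with the quasi-likelihood F test and Benjamini-Hochberg adjustment at 0.05. CPM values are normalised counts. SEs and 95% intervals were derived from the F statistic. Comparisons share libraries: the drug libraries enter the first and the third, vehicle the first and the second, day 0 the second and the third. The labels name biological replicates without saying whether they are separate cultures, so p-values measure the spread between these libraries. Replicate numbers correlated at 0.0807 (drugs and vehicle), -0.199 and -0.0604 (each with day 0, vehicle first) in their deviations, so they were used only in an alternative. The other alternatives were DESeq2 1.42.0, RLE size factors, library totals, no Rn45s, no filter, 2 groups only and each library left out. Scripts were tested on simulated counts.

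Members and lists were chosen with earlier results of these data known. Values per library are given for up to 3 called members per role with the smallest p, members called against the main direction and the largest changes with vehicle or against day 0, 16 in all, and those of other members with single values were chosen after they were seen. Other pathway genes named are up to 2 per list and direction, of 157 listed, all found, 3 by an older symbol. Promoter windows are RefSeq's (GRCm38.p6), matched by symbol. Gene positions are those of the deposited table on mm10.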

Additional observations from a re-analysis of the deposited data

How the results depend on the processing

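With drugs against vehicle, the direction of the members' median held in every fit run, and their lower calls were 20 with a replicate block, 22 with DESeq2 and 30 with library totals or with only the 2 groups. Higher member calls were 1 with DESeq2. Leaving out each library in turn gave 1 to 2 higher and 8 to 28 lower members, medians of -0.32 to -0.24, and 1251 to 2291 higher and 582 to 1900 lower genes overall. The log2 change of Polr1c ranged from -0.065 to 0.0047 (without drug replicate 2) and that of Rn45s from -0.044 (without vehicle replicate 2) to 0.17, all uncalled, and the cause was not tested.

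Vehicle against day 0 depended most on the fit. All genes gave 423 higher and 450 lower calls in the main fit, 255 and 236 with DESeq2, 1741 and 216 with library totals, 821 and 843 without the filter, 269 and 258 with only the 2 groups, and 222 and 261 with the replicate block. Library totals moved the median of all genes by 0.12 and that of the members to 0.025, while the members stayed at -0.08 relative to all genes in both scalings. Lower members numbered 0 with DESeq2, RLE size factors, library totals, Rn45s left out, only the 2 groups or the replicate block, and 3 without the filter, and higher members 3 with library totals and 1 without the filter. Libraries left out in turn gave 155 to 851 higher and 196 to 1161 lower genes, 0 to 1 higher and 0 to 5 lower members, and medians of -0.15 to -0.082.

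With drugs against day 0, library totals gave 1321 lower genes instead of 2394 and a member median of -0.30. Leave-one-out ranges were 1667 to 2632 higher and 1205 to 2625 lower genes, 1 to 2 higher and 22 to 34 lower members, and medians of -0.44 to -0.34. With library totals, higher genes made up 49.2% of calls in the first comparison (56.7% in the main fit), 89.0% in the second (48.5%) and 70.4% in the third (51.7%). Replicate numbers are not known to pair the libraries, and the block is given only as a check: it called 1775 higher and 1183 lower genes in the first comparison and 2296 and 2031 in the third, with 30 lower members there. Each group had only 2 libraries, so no library could be tested as standing apart, and changes smaller than about the intervals given could not be told from 0.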
